A study of Mus musculus with 2 samples.

Results

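The heat shock proteins, the J-domain proteins and the heat shock factors were described in cultured fibroblastic reticular cells (FRCs), the stromal fibroblasts whose fibre network carries the tissue of a lymph node. Members were all genes whose symbol in the platform's probe annotation begins with Hspa, Hspb, Hspd, Hspe or Hsph and a digit, with Hsp90, with Hsf and a digit, or with Dnaja, Dnajb or Dnajc and a digit, and which had a probe set naming no other gene. The rule found 75 of 19751 named genes, measured by 97 probe sets, and it used no measured value. All material belonged to 1 group of 2 microarrays, called replicate 1 and replicate 2 in the labels: FRCs of lymph nodes from untreated C57BL6/J mice aged 4 to 6 weeks. Stromal cells of the node had been expanded in αMEM medium containing 10% fetal calf serum over 7 to 10 days, so the values belong to cells adapted to plastic and serum and not to the node. Whether the replicates were separate animals or cultures is not stated in the labels, and the spread between them may be technical. With 1 group there was no condition to test against and no p-value is given.

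Chaperones bind proteins that are not yet folded or have lost their fold. HSP70 proteins hold short hydrophobic stretches in a cycle driven by ATP. J-domain proteins deliver the substrate and start ATP hydrolysis, and HSP110 proteins open the cycle again by exchanging the nucleotide. The cytosol, the endoplasmic reticulum (ER) and the mitochondria each have HSP70 proteins of their own with matching J-domain partners, beside HSP90 in the cytosol and ER and the HSP60 and HSP10 chaperonin in mitochondria. Small heat shock proteins hold unfolded proteins without ATP, and heat shock factors are the transcription factors that switch many of these genes on. Fibroblasts secrete large amounts of collagen and other matrix proteins, which fold in the ER.

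Levels are log2 intensities. Because probes differ in how strongly they bind, no gene's level was set against another gene's. Each gene was instead set against a background limit, the 95th percentile of 1035 probe sets for olfactory receptors, which was 7.15 on replicate 1 and 7.17 on replicate 2. A stricter limit, taken the same way from 30 probe sets of genes specific to single tissues (liver, testis, retina and others), was 8.28 and 8.33. Of the 75 members, 63 (84.0%) lay above the first limit on both arrays, where 67.3% of all named genes did. Another 2 did so on 1 array, and 10 on neither array. The stricter limit was passed on both arrays by 54 members (72.0%), against 47.7% of all named genes.

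The same counts were made by compartment, beside 67.3% of all named genes above the first limit and 47.7% above the stricter one. The lists are short, and whether the compartments differ was not tested. In the ER 14 of 14 passed the first limit and 14 the stricter one. In mitochondria 9 of 10 passed both. Among the chaperones of cytosol and nucleus 38 of 45 passed the first limit and 30 the stricter one. Of 4 measured heat shock factors 2 passed the first limit and 1 the stricter one.

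**Figure D1:**
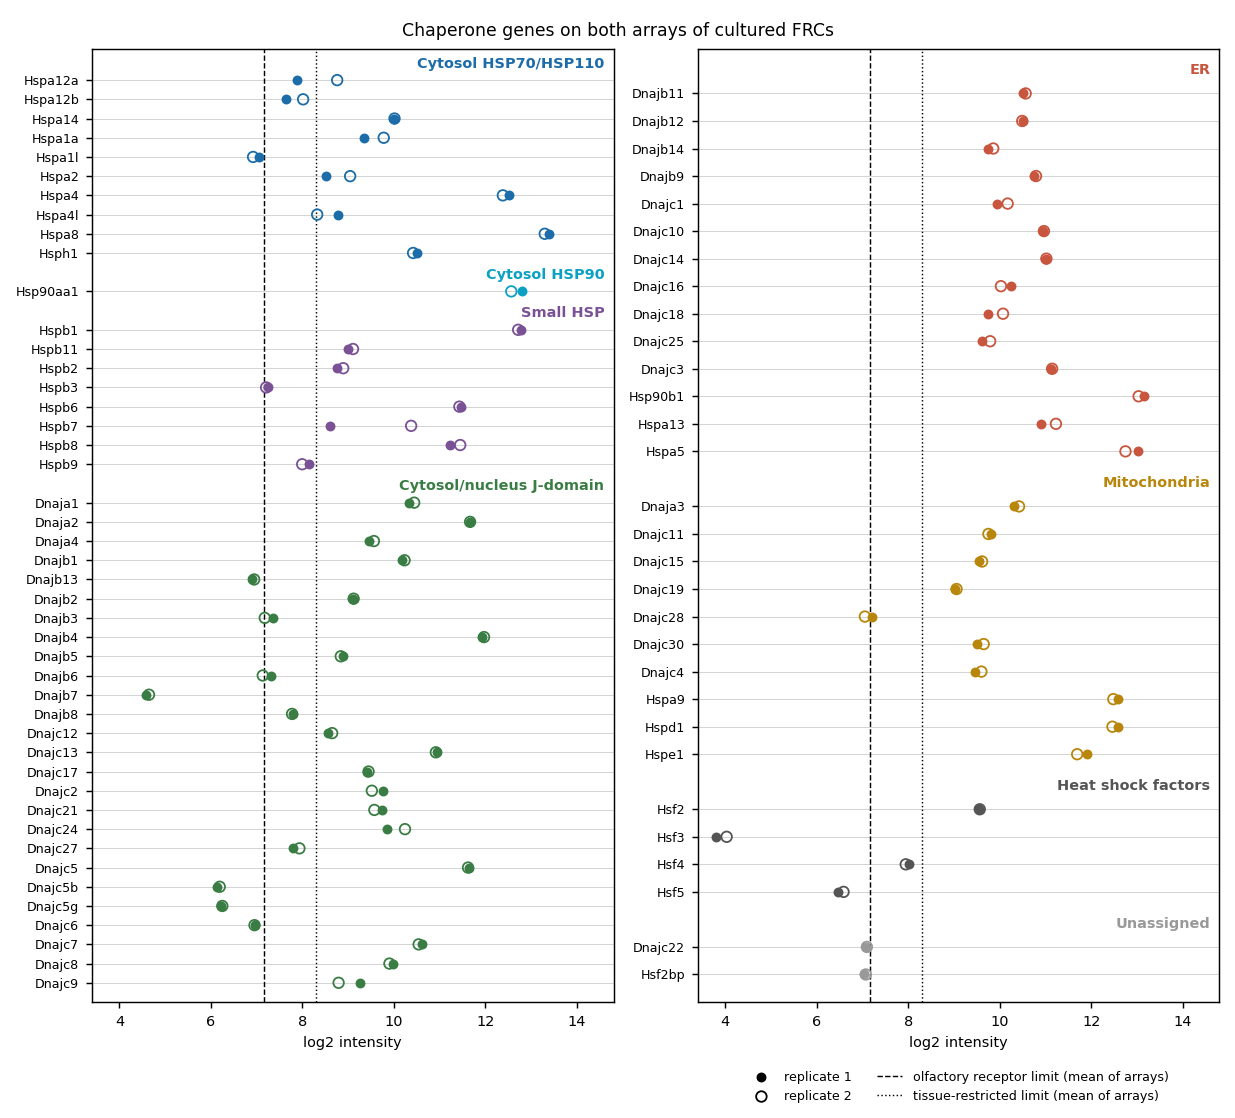
Each row is 1 gene and the x axis its log2 intensity on replicate 1 (filled) and replicate 2 (open), with genes grouped by compartment. The dashed line is the olfactory receptor limit and the dotted line the tissue-restricted limit, each as the mean of both arrays. All 14 ER genes lie right of both lines, and Hspb7 has the widest gap between the arrays.

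The identity of the cells was checked with a short marker list. Of 8 FRC markers 7 passed the first limit and 6 the stricter one, on both arrays each, with Pdpn at 12.60 and 12.73 and Pdgfrb at 12.81 and 13.11 on replicates 1 and 2. Ccl19 passed the first limit only, and Fap was below both (5.96 on each array). No endothelial, leukocyte or epithelial marker of the 13 measured passed the stricter limit on both arrays, and Emcn passed it on replicate 2 only. The first limit was passed on both arrays by 2 of 5 endothelial, 2 of 5 leukocyte and 1 of 3 epithelial markers. The leukocyte and epithelial genes among these were Cd3e (7.58 and 7.60), Csf1r (7.66 and 7.54) and Krt14 (7.37 and 7.57). The pan-leukocyte gene Ptprc, at 6.41 and 6.47, was below both limits. Of 15 proliferation markers 15 were higher on replicate 1, 7 of them by 1.5-fold or more. Of all 13577 genes tested, those with a mean level above the first limit, 48.8% were higher on replicate 1 and 1.91% by 1.5-fold or more. The median difference of the proliferation markers was 0.54 on the log2 scale.

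Of the 10 cytosolic HSP70 and HSP110 genes measured, 9 lay above the first limit and 6 above the stricter one, each on both arrays. Hspa8, the constitutive HSP70 that also strips clathrin from vesicles, was at 13.40 on replicate 1 and 13.30 on replicate 2. The HSP110 gene Hspa4 was at 12.51 and 12.38. Its relative Hsph1 was at 10.51 and 10.42. All 3 were slightly higher on replicate 1, by 0.10, 0.13 and 0.09 on the log2 scale. Hspa14, which works with the J-domain protein of Dnajc2 on ribosomes, was at 10.00 and 10.01.

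Hspa1a, a stress-induced HSP70 gene, was at 9.36 on replicate 1 and 9.78 on replicate 2, a mean of 9.57 ± 0.30 (SD, n = 2). Hspa2, best known from male germ cells, was at 8.52 and 9.04. Hspa12a, a distant HSP70 relative, was at 7.88 and 8.76, above the stricter limit on replicate 2 only. These 3 genes were higher on replicate 2, by 1.34-fold, 1.43-fold and 1.84-fold. Hspa12b, known from endothelial cells, was at 7.64 and 8.02 and below the stricter limit. Beside it, of 5 endothelial markers 2 lay above the first limit on both arrays. Of these, Emcn was at 7.64 and 8.40 and Cdh5 at 8.05 and 7.53, while Pecam1, at 7.22 and 7.13, passed on 1 array, and Prox1 (6.44 and 6.40) and Lyve1 (6.76 and 7.14) were below it. Their part in the Hspa12b signal was not tested.

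Hspa4l, also an HSP110 gene, was at 8.79 and 8.32, or 1.38-fold higher on replicate 1. Hspa1l, an HSP70 gene of male germ cells, was below the limit (7.06 and 6.92). Hspa1a lies beside its near-identical copy Hspa1b, which had no probe set of its own, so signal from either gene cannot be told apart with certainty.

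Of the cytosolic HSP90 genes only Hsp90aa1, the more inducible form, was measured by probe sets of its own. It was at 12.80 and 12.57, a mean of 12.68 ± 0.17 (SD, n = 2), and was higher on replicate 1 in 3 of 3 probe sets. Hsp90ab1 was not analysed here.

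The small heat shock protein genes held the member with the widest gap between the arrays. Hspb7, known from heart and skeletal muscle, was at 8.59 on replicate 1 and 10.38 on replicate 2, a mean of 9.49 ± 1.26 (SD, n = 2) and a 3.44-fold difference. It passed the stricter limit on both arrays. The other members did not share the gap. Hspb1, which encodes HSP25, the mouse form of HSP27, was at 12.78 and 12.72. Hspb6, known from smooth muscle, was at 11.46 and 11.43. Hspb8, a partner of the co-chaperone Bag3 in the removal of misfolded proteins, was at 11.23 and 11.45. These 3 genes differed by at most 0.22 on the log2 scale.

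Hspb2, known from muscle, was at 8.76 and 8.89. Hspb3, also a muscle gene, sat just above the first limit at 7.25 and 7.21. Hspb9, known from testis, was at 8.15 and 8.0, between the limits. Hspb11 (9.0 and 9.11) carries the family's name but encodes a subunit of the intraflagellar transport machinery.

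Some members carry heat shock elements, the letters that heat shock factors are known to bind, and the stretches that hold them are shown here. RefSeq windows of the GRCm38.p6 build, from 250 bases before to 50 after an annotated gene start, were found for 61 of the 75 members. The 3-unit element was searched on both strands as GAA, TTC and GAA with 2 bases of any kind between neighbouring units. It was present for 4 of 61 members (6.56%), against 0.66% of 27025 genes. The shorter 2-unit form, GAA and TTC with 2 bases between them, which lies inside every 3-unit match and reads the same on both strands, was present for 13 members (21.3%), against 9.04% of genes. A match is a description of letters, not a binding site. In the lines below, written 5′ to 3′ along the gene, capitals mark the 3-unit element for Hsph1 and Dnajb6 and the 2-unit element for Hspa1a and Hspb1. The stretches lie at chr5:149636279-149636308, minus strand for Hsph1, chr5:29735798-29735897, plus strand for Dnajb6, chr17:34972157-34972306, minus strand for Hspa1a and chr5:135887769-135887918, plus strand for Hspb1.
Hsph1: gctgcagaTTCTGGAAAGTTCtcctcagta
Dnajb6: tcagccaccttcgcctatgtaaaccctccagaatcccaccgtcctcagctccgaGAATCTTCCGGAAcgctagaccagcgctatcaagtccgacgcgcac
Hspa1a: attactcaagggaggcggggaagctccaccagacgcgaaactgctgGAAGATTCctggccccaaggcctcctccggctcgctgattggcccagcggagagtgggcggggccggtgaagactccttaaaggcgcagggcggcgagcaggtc
Hspb1: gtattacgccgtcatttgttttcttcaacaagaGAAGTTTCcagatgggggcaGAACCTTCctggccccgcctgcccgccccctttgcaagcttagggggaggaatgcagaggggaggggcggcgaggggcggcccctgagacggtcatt
Hspb1 carries the 2-unit form at 2 places, and Hspa1a at 1. Hsph1 and Dnajb6 each have 2 annotated starts. The Hsph1 element begins 15 bases after one and 36 bases after the other, and the Dnajb6 element 46 bases before one and 127 bases before the other. No exact match was found for Dnajb1 in its windows, which says only that these letters are absent there.

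**Figure D2:**
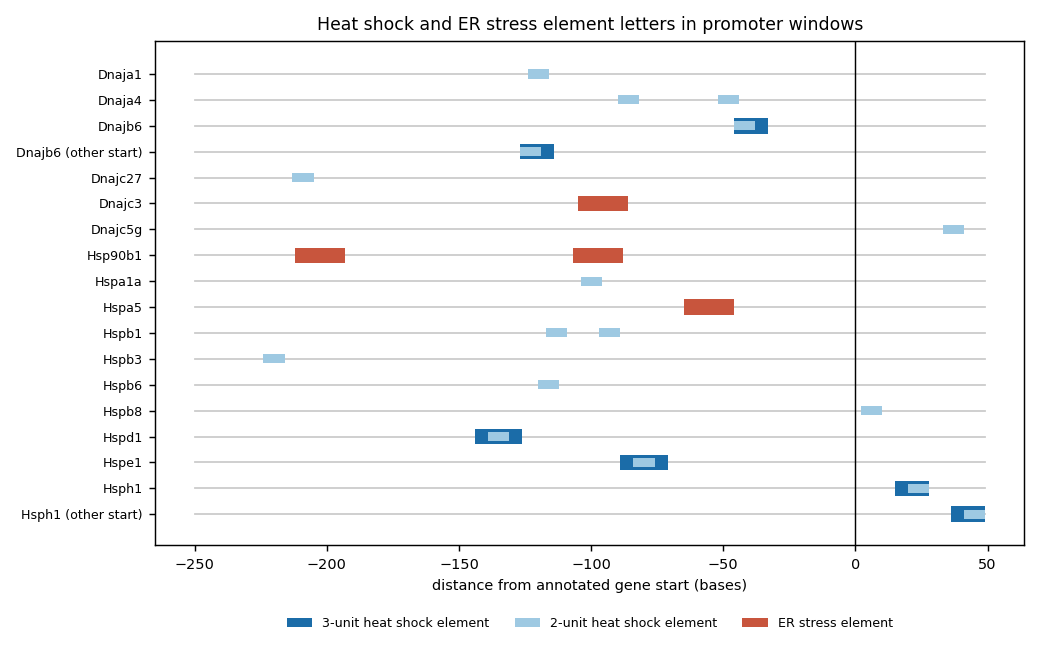
Each row is the promoter window of 1 member that holds a searched element, and the x axis the distance in bases from the annotated gene start. Dark blue bars are 3-unit and light blue bars 2-unit heat shock elements, and red bars ER stress elements. Red bars occur only in the rows of Dnajc3, Hsp90b1 and Hspa5, and Hsp90b1 has 2 of them.

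The J-domain genes of the cytosol and nucleus are the largest compartment list. On both arrays, 20 of 26 genes passed the first limit and 17 the stricter one, and 18 of the 21 with a mean level above the limit (85.7%) differed by under 0.2 on the log2 scale, where 72.9% of all genes tested did. The class A proteins, which most resemble the bacterial DnaJ protein, were measured by Dnaja1 (10.34 and 10.44, with its 2 probe sets differing in opposite directions), Dnaja2 (11.67 on each array) and Dnaja4 (9.46 and 9.56). The next genes belong to class B, whose cytosolic members serve HSP70 in refolding. Dnajb1, the main HSP40 gene of the heat shock response, was at 10.17 and 10.23. Dnajb4 was at 11.94 and 11.97. Dnajb5 was at 8.88 and 8.84, and Dnajb2, whose protein binds ubiquitin chains, at 9.10 and 9.12.

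Class C proteins use the J-domain for special tasks. Dnajc5, which encodes the cysteine string protein of exocytic vesicles, was at 11.63 and 11.62. Dnajc13, an endosomal protein, was at 10.94 and 10.92 over 15 probe sets. Dnajc7, a link between HSP70 and HSP90, was at 10.62 and 10.54. These values differed by under 0.1 on the log2 scale. Dnajc2, the ribosome-bound partner of Hspa14, was at 9.75 and 9.52, and Dnajc21, needed in ribosome assembly, at 9.73 and 9.57. Dnajc8, a nuclear protein linked to splicing, was at 9.98 and 9.90. Dnajc17 was at 9.41 and 9.45, and Dnajc12, a partner of aromatic amino acid hydroxylases, at 8.55 and 8.65.

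Dnajc9 and Dnajc24 differed most among the J-domain genes. Dnajc9, a chaperone of newly made histones, was at 9.25 on replicate 1 and 8.79 on replicate 2, a mean of 9.02 ± 0.33 (SD, n = 2) and 1.38-fold higher on replicate 1. The proliferation markers were also higher on replicate 1, with differences between 0.21 and 1.07 on the log2 scale, among them Mcm5 at 10.38 and 9.94, Pcna at 12.06 and 11.72 and Mki67 at 10.52 and 9.45. Their part in the Dnajc9 difference was not tested. Dnajc24, needed for the diphthamide modification of an elongation factor, was at 9.85 and 10.24, 1.31-fold higher on replicate 2.

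Several J-domain genes known from testis or neurons gave no clear signal. Below the first limit on both arrays were Dnajb7 (4.59 and 4.65), the sperm flagellum gene Dnajb13 (6.91 and 6.95), Dnajc5b (6.12 and 6.19), Dnajc5g (6.21 and 6.25) and the neuronal auxilin gene Dnajc6 (6.97 and 6.95). Dnajb3, known from testis, was at 7.36 and 7.18, just above it. Dnajb8, also known from testis, was at 7.80 and 7.77, and Dnajc27, a small GTPase relative with a J-domain, at 7.79 and 7.93, both between the limits. Dnajb6, known for holding back aggregates of polyglutamine proteins, was at 7.32 and 7.13 and passed on replicate 1 only. That value rests on 1 probe set for which the annotation lists 1 transcript, and 3 further probe sets that Dnajb6 shares with Gm4247 were far above the limit on both arrays, from 12.15 to 13.28.

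**Figure D3:**
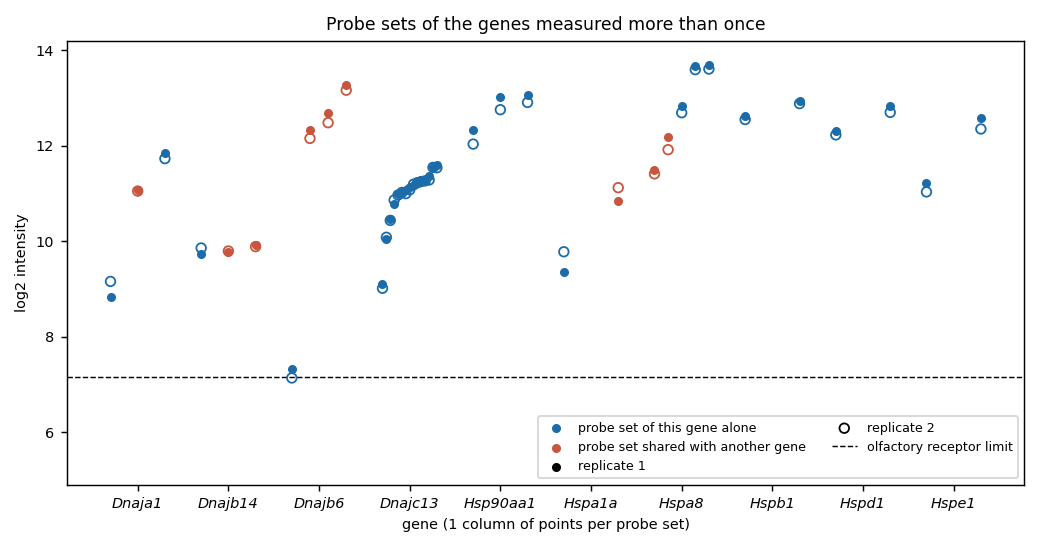
Each column of points is 1 probe set, with log2 intensity on the y axis, replicate 1 filled and replicate 2 open, blue for a probe set of the gene alone and red for one shared with another gene. The Dnajb6 probe set of its own sits at the dashed olfactory receptor limit, and its shared ones above 12 on both arrays.

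In the ER all members gave signal, and the main lumenal chaperones were slightly higher on replicate 1. Hspa5, the ER form of HSP70 known as BiP, was at 13.03 and 12.75, a mean of 12.89 ± 0.20 (SD, n = 2). Hsp90b1, the ER form of HSP90 known as GRP94, was at 13.15 and 13.03. Both were higher on replicate 1, by 1.22-fold and 1.08-fold. The lumenal J-domain partners of BiP did not follow them. Dnajb9 was at 10.74 and 10.79, Dnajb11 at 10.51 and 10.57, and Dnajc3 at 11.12 and 11.14. Dnajc10, which reduces disulfide bonds of proteins bound for degradation, was at 10.93 and 10.96. These 4 were level or marginally higher on replicate 2, by at most 0.05 on the log2 scale.

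Hspa13, an HSP70 relative of microsomes, was at 10.91 and 11.23, 1.25-fold higher on replicate 2. Dnajc18 differed by as much, at 9.75 and 10.07. Dnajc1, a J-domain protein that spans the ER membrane, was at 9.95 and 10.17. Dnajb12 (10.50 and 10.49) and Dnajb14 (9.73 and 9.86), which sit in the ER membrane and serve degradation, differed less. Dnajc14 was at 11.01 and 11.02, Dnajc25 at 9.61 and 9.79 and Dnajc16 at 10.24 and 10.03. Over the 14 ER genes the median difference was -0.04 on the log2 scale, with 4 higher on replicate 1 and 10 on replicate 2.

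Among the ER genes 3 carry the ER stress element, searched on both strands as CCAAT and CCACG with 9 bases of any kind between them. They were Hspa5, Hsp90b1 and Dnajc3, out of 61 members with a window (4.92%), against 0.14% of genes, and out of 12 ER members with a window. The bare CCAAT box, which the element contains, was as common among members (44.3%) as among genes in general (41.1%). The stretches below are shown because the element recurs in them, at chr2:34771940-34772089, plus strand for Hspa5, chr10:86705495-86705674, minus strand for Hsp90b1 and chr14:118937782-118937931, plus strand for Dnajc3, and capitals mark the element.
Hspa5: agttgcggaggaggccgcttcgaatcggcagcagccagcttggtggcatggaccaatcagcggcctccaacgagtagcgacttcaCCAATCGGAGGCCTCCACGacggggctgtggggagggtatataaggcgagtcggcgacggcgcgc
Hsp90b1: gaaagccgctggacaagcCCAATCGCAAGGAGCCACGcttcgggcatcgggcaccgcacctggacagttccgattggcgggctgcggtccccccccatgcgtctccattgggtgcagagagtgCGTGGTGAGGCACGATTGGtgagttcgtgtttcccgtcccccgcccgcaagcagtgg
Dnajc3: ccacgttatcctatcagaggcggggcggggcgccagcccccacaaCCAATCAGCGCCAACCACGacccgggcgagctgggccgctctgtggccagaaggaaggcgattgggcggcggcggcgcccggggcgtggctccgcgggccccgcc
The Hsp90b1 stretch holds the element at 2 places, once on each strand. None of the 12 ER members with a window held a heat shock element of either form. Of all genes 9.04% held the 2-unit form and 0.66% the 3-unit form, so a count of 0 among 12 is near that background.

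In mitochondria the HSP70 and the chaperonin gave signal and were all slightly higher on replicate 1. Hspa9, the mitochondrial HSP70 that pulls proteins through the inner membrane, was at 12.58 and 12.48. Hspd1, which encodes HSP60, was at 12.58 and 12.46, and Hspe1, which encodes its lid HSP10, at 11.90 and 11.69. The fold differences were 1.07, 1.08 and 1.15. Both Hspd1 probe sets and both Hspe1 probe sets were higher on replicate 1. RefSeq lists 5 pseudogene copies of Hspd1 and 7 pseudogene or related copies of Hspe1, so their probe sets may read more than 1 locus.

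Hspd1 and Hspe1 lie head to head, and Hspd1 has 2 annotated starts. Shown here is the stretch between the start of Hspe1 and 1 start of Hspd1. It holds 1 run of letters that lies before both of these starts. It covers chr1:55087933-55088147, plus strand, written in the direction of Hspe1, and capitals mark 2 overlapping 3-unit heat shock elements, 1 on each strand, which make 1 array of 4 units.
Hspe1: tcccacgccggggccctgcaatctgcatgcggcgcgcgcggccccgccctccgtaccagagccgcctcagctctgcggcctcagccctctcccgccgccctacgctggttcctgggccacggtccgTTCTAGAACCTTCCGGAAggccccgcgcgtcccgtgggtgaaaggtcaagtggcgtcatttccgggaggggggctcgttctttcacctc
The array begins 89 bases before the start of Hspe1 and 144 bases before the Hspd1 start used here. The window around the other Hspd1 start held no heat shock element of either form.

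On both arrays, 6 of the 7 mitochondrial J-domain genes passed the first limit. Dnaja3, the class A partner of mitochondrial HSP70, was at 10.32 and 10.42. Dnajc19, the J-domain subunit of the import motor, was at 9.02 and 9.06, and its relative Dnajc15 at 9.55 and 9.61. Dnajc30 was at 9.51 and 9.65 and Dnajc4 at 9.47 and 9.60. These 5 were higher on replicate 2, by 0.04 to 0.14 on the log2 scale, while Dnajc11, a protein of the outer membrane, was at 9.82 and 9.75. Dnajc28, at 7.21 and 7.05, was also higher on replicate 1 and passed the first limit there only. Over the 9 genes with a mean level above the limit, the median difference was -0.04.

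Of the heat shock factors, Hsf2 was the 1 gene above the stricter limit, at 9.55 and 9.56. Hsf4, known from the lens, was at 8.02 and 7.94, between the limits. Hsf5, known from testis, was at 6.46 and 6.58, and Hsf3 at 3.80 and 4.03, both below. Hsf1, the main factor of the heat shock response, was not analysed here. The rule also took in Hsf2bp, which encodes a partner of HSF2 and not a heat shock factor (7.03 and 7.07), and Dnajc22 (7.07 and 7.10), which was given no compartment, and both were below the limit.

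Differences between the arrays were counted over the 64 members with a mean level over 7.16, the mean of the first limit on both arrays, which left out 11. At 1.5-fold or more, 0 were higher on replicate 1, where 1.91% of 13577 genes were, and 2 on replicate 2, Hspb7 and Hspa12a, where 2.87% were. In either direction 4.77% of genes passed 1.5-fold, so the members' count was near that background. The median difference of the members was -0.01, and that of all genes tested was -0.0046. Under 0.2 on the log2 scale were 47 of 64 members (73.4%), beside 72.9% of all genes tested. By both measures the members as a whole differed between the arrays about as much as other genes.

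The same count was made by family. Of 38 J-domain genes 32 (84.2%) differed by under 0.2, with a median SD of 0.05. Of 16 HSP70, HSP90, HSP110 and chaperonin genes 7 (43.8%) did, with a median SD of 0.16. In direction, 10 of these 16 were higher on replicate 1 and 15 of the 38 J-domain genes were, where 48.8% of all genes tested were. No test of this contrast was made, since each difference rests on 1 array a side. Replicate 1 was ahead most, on the log2 scale, for Hspa4l (0.46), Dnajc9 (0.46), Hspa5 (0.28), Hsp90aa1 (0.24), Dnajc2 (0.23), Dnajc16 (0.21) and Hspe1 (0.21), the near-limit genes Dnajb3 (0.18) and Dnajb6 (0.18), and Dnajc21 (0.16). Replicate 2 was ahead most for Hspb7 (-1.78), Hspa12a (-0.88), Hspa2 (-0.52), Hspa1a (-0.42), Dnajc24 (-0.39), Hspa12b (-0.38), Dnajc18 (-0.32), Hspa13 (-0.32), Dnajc1 (-0.22) and Hspb8 (-0.22).

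**Figure D4:**
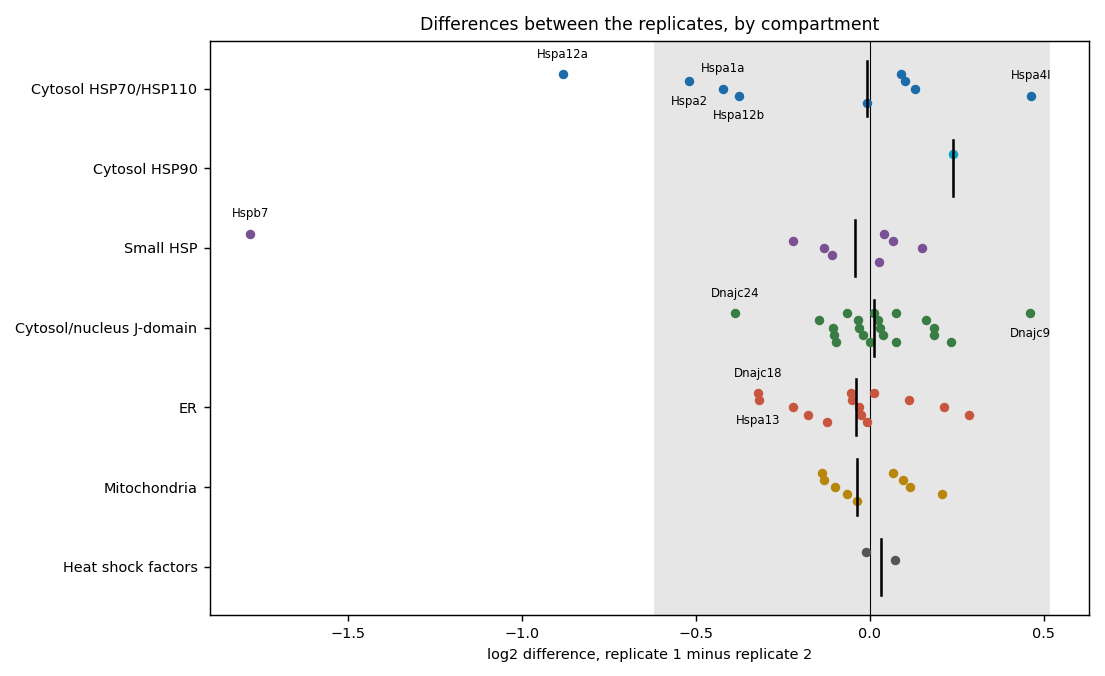
Each point is 1 of the 64 members with a mean level above the limit, on the x axis its log2 difference, replicate 1 minus replicate 2, and on the y axis its compartment. Black bars are medians and the grey band holds the central 95% of differences of all 13577 genes tested, from -0.62 to 0.52. Hspb7 and Hspa12a lie outside the band and the other 62 members inside it.

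The 4 members with the 3-unit heat shock element, Hsph1, Hspd1, Hspe1 and Dnajb6, were all slightly higher on replicate 1, by 0.09 to 0.21. Dnajb6 lay above the first limit on replicate 1 only, the array where it was higher, so its direction adds nothing to that count. Of the 48 others with a window and a level above the limit, 19 were higher on replicate 1. With the 2-unit form and a level above the limit there were 12 members, the 4 with the 3-unit form among them. Of these 12, 7 were higher on replicate 1, and of the 40 without the form 16 were. Those with the 2-unit form that were higher on replicate 2 were Hspa1a, Dnaja1, Dnaja4, Dnajc27 and Hspb8. These are small differences between 1 array and 1 array, and for Hspd1 and Hspe1 the element is the same stretch of letters.

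Other genes of the folding network gave signal throughout. Of 21 cytosolic co-chaperones 21 passed both limits, where 47.7% of all named genes passed the stricter one. By 1.5-fold in either direction 0 differed, where 4.77% of all genes tested did, so a count of 0 among 21 is near that background. Bag1 was at 11.08 and 11.19, Bag2 at 10.42 and 10.34, and Bag3, the stress-induced partner of Hspb8, at 11.49 and 11.65. Stip1, which hands clients from HSP70 to HSP90, was at 12.21 and 12.00. Of 14 genes of the CCT chaperonin and prefoldin, which fold actin and tubulin, 14 passed both limits. Here 12 of 14 were higher on replicate 1, where 48.8% of all genes tested were, with a median difference of 0.06, and examples were Tcp1 (12.51 and 12.46), Cct2 (12.81 and 12.79) and Cct3 (12.21 and 12.15).

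All 20 ER folding partners passed both limits, where 47.7% of all named genes passed the stricter one. Their median difference was 0.05 in favour of replicate 1. Canx was at 13.43 and 13.36, Calr at 13.18 and 13.12 and Pdia3 at 12.97 and 12.86, the calnexin cycle of glycoprotein folding. Hyou1, the ER form of HSP110, was at 11.71 and 11.39, and the stress-induced genes Sdf2l1 (10.80 and 10.47) and Creld2 (11.26 and 10.89) were higher on replicate 1 by similar amounts. Other genes of the list went the other way. Sil1, an exchange factor of BiP, was at 10.04 and 10.51, Herpud1, a stress-induced gene of ER degradation, at 10.92 and 11.24, and Serpinh1, the collagen chaperone HSP47, at 12.19 and 12.41. Of 12 mitochondrial folding and quality control genes 12 passed the first limit and 11 the stricter one, all but Hscb (7.40 and 7.50). Trap1, the mitochondrial HSP90, was at 10.79 and 10.83, Grpel1, an exchange factor of Hspa9, at 11.04 and 10.97, and Grpel2 at 10.14 and 10.14. In this mitochondrial list 12 of 12 genes differed by under 0.2, where 72.9% of all genes tested did.

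**Figure D5:**
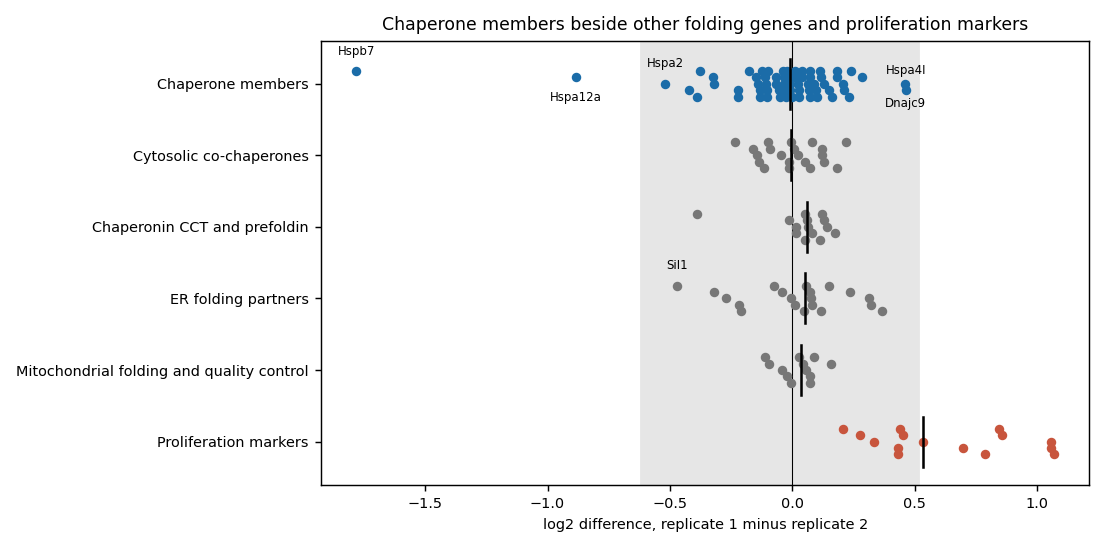
Each point is 1 gene with a mean level above the limit, on the x axis its log2 difference, replicate 1 minus replicate 2, and on the y axis its list. Black bars are medians and the grey band holds the central 95% of differences of all genes tested. The medians of the members and of the 4 folding lists lie between -0.01 and 0.06, and that of the proliferation markers is 0.54.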

How the data were processed

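Gene expression was measured on 2 microarrays of 1 group. The deposited table gives 1 intensity per probe set on a linear scale, made by the authors with RMA (robust multi-array average, version not stated), per the submitters' processing notes. RMA normalises arrays to each other and compresses differences at low signal. The set of arrays used for that step is not named in the labels. For arrays, their number limits the precision.

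Here intensities were turned into log2 values. The table holds 24679 probe sets, of which the platform annotation ties 21354 to 1 gene, 1275 to several and 2050 to none. Those with 1 gene were averaged per gene on the log2 scale. All 75 members were found in RefSeq by identifier, and 0 symbols changed. Differences are replicate 1 minus replicate 2, and SDs are over n = 2. Python 3.11.15, pandas 2.3.3 and numpy 2.4.6 were used. Promoter windows are RefSeq's on GRCm38.p6. The array files name no build.

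Every member could be named. Values of both arrays were to be given for a set of core genes, for the 10 largest differences each way and for members at or below the limit, and for other lists for the leading genes. Of those lists Stip1, Hyou1, Sdf2l1, Creld2, Sil1, Herpud1, Serpinh1, Hscb, Cryab, Mcm5 and Pcna were chosen after their values were seen. Compartments were assigned by general knowledge. The members and lists were chosen with earlier results of these data known.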

Additional observations from a re-analysis of the deposited data

How the results depend on the processing

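The count of members above the limit, 63, lay between 54 (tissue-restricted limit) and 70 (90th percentile of the olfactory receptors) over 7 alternatives, and was 63 without replicate 1 and 65 without replicate 2. The count of members with a 1.5-fold difference stayed at 2 under quantile normalisation, median centring, no or a stricter filter on level and the highest or lowest probe set, and was 1 at 2-fold, where Hspb7 alone passed. The median difference of the members lay between -0.03 and 0.01 over 6 alternatives. By compartment, the heat shock factors above the limit were 1 in place of 2 at the 99th percentile and at the tissue-restricted limit, and Hsf2bp and Dnajc22 passed at the 90th percentile. Each difference between the arrays rests on 1 array a side. Values near the limits have no clear order, since RMA compresses low signal. No paired analysis was possible because there is 1 group.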

Other observations

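Probe sets that name a member together with another gene were left out of the counts. The probe set shared by Hspa1a and Hspa1b was at 10.84 on replicate 1 and 11.12 on replicate 2, higher on replicate 2 like the probe set of Hspa1a alone. The 3 probe sets shared by Dnajb6 and Gm4247 were at 13.28 and 13.16, 12.68 and 12.48, and 12.34 and 12.15, all higher on replicate 1. The 2 probe sets that Hspa8 shares with the small nucleolar RNAs Snord14c and Snord14d were at 12.19 and 11.92 and at 11.49 and 11.41. The 2 probe sets that Dnajb14 shares with Pin4 were at 9.93 and 9.89 and at 9.78 and 9.79. All of these lay above the stricter limit on both arrays.

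The 2 probe sets of Dnaja1 alone ran in opposite directions, at 8.83 and 9.16 for one and at 11.85 and 11.73 for the other, so the mean difference of Dnaja1 averages opposite signs. Another probe set, shared by Dnaja1 and Mir207, was at 11.08 and 11.05. RefSeq lists 1 pseudogene copy of Dnaja1. The lens and muscle gene Cryab, a small heat shock protein that the symbol rule does not take in and that neighbours Hspb2, was at 12.87 and 13.10, and Hspb2 at 8.76 and 8.89, both higher on replicate 2.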
